A study of Mus musculus with 10 samples.

Results

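Complement transcripts were followed in the preoptic region of the hypothalamus of mice given lipopolysaccharide (LPS). The listed genes were C1qa, C1qb, C1qc, C3, C4b, Cfb, C3ar1 and C5ar1, and every probe set whose annotation names exactly 1 gene, with that gene on the list, was taken. This gave 11 of the 45101 probe sets on the array, for 6 of the 8 genes. C1qb and C3ar1 each had 3 probe sets, C5ar1 had 2, and C1qa, C1qc and Cfb had 1 each. C4b is named on 1 probe set together with the near-identical C4a, so it was not used here, and C3 was not analysed here because 0 probe sets were annotated to it.

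The study set mice labelled knockout (KO) for mPGES-1 against mice labelled wild-type (WT), which asks how the enzyme that makes prostaglandin E2 during inflammation bears on preoptic transcripts. There were 5 arrays per group, 1 mouse per array, and all mice were of the DBA1/lacJ strain. Mice of both groups had received 120 µg/kg LPS, a bacterial cell wall component that provokes fever, into the peritoneum, and brains were taken 5 h later. The region was isolated by laser capture, so each array holds RNA of all cell types within it, and RNA underwent 2 rounds of amplification. Mice not given LPS were not analysed here, so an LPS response cannot be read from these arrays, while the labels do not say which stretch of the gene was deleted or give the mice's ages.

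Complement is a cascade of plasma and locally made proteins that tags microbes and cell debris. C1q, built of the A, B and C chains encoded by C1qa, C1qb and C1qc, recognises targets and starts the classical pathway, C3 and C4 are the proteins then cleaved and deposited, and factor B (Cfb) is the protease of the alternative pathway. The receptors C3ar1 and C5ar1 bind the small fragments C3a and C5a, which attract and activate immune cells. In the brain, microglia are the main source of C1q.

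The deposited values were intensities on a linear scale, and each array had been scaled to the same trimmed mean. The median intensity of an array lay between 24.6 and 29.8 in the KO group and between 32.0 and 44.8 in the WT group, without overlap, so dim probe sets sat lower on the KO arrays. Over all 45037 probe sets other than controls, the median difference was -0.13 on the log2 scale (KO minus WT), and 65.1% were lower in KO. In 4 equal classes of mean level, from dimmest to brightest, that median was -0.16, -0.24, -0.14 and 0.02. Ptges, the gene of mPGES-1, was not lower in the arrays labelled KO: its probe set 1439747_at gave 17.5 to 76.1 in KO and 1.51 to 9.33 in WT, 1449449_at gave 9.83 to 60.2 in KO and 1.25 to 34.6 in WT, and 1449450_at gave 22.2 to 61.5 in KO and 2.75 to 57.8 in WT. The first was without overlap and the others overlapped, but on each of them both the lowest and the highest value were higher in KO. A loss of this transcript was thus not seen in the arrays labelled KO. Every KO minus WT direction given here rests on the titles alone, and whether the labels are right was not tested. Of 10 preoptic marker genes with a probe set, 7 were above the level filter, a mean log2 value of 5.83, while Hmx2, Nkx2-1 and Tac2 were below it. Poly-A spike-in probe sets averaged at least 100 on 7 arrays and less on KO replicate 3 and WT replicates 2 and 5. With 5 arrays per group, the precision of each value is limited.

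C1qb, C1qc and C1qa are direct neighbours on chromosome 4 among protein-coding genes, Cfb lies next to C2 on chromosome 17, and C5ar1 lies next to the second C5a receptor gene, C5ar2, on chromosome 7. Promoter windows from 250 bases before to 50 bases after the gene start, from RefSeq (GRCm38.p6), were at hand for 5 of the 8 genes (C1qb, C1qc, C3, C3ar1 and C5ar1). Those of C1qb (chr4:136886151-136886450, minus strand) and C1qc (chr4:136892865-136893164, minus strand) are shown because these neighbours encode chains of 1 protein. Capitals mark GAGGAA, the core letters bound by PU.1, a transcription factor of microglia and other myeloid cells, read on either strand. That of C5ar1 (chr7:16259289-16259588, minus strand) is shown because its probe sets gave the lowest KO values of the list, and capitals mark TTNNGNAA, letters bound by C/EBP factors.
C1qb: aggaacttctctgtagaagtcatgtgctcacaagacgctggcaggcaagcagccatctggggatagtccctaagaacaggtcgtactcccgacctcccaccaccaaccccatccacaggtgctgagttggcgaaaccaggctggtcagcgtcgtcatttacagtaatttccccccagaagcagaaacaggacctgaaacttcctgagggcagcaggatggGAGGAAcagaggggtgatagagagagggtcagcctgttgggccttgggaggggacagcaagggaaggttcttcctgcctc
C1qc: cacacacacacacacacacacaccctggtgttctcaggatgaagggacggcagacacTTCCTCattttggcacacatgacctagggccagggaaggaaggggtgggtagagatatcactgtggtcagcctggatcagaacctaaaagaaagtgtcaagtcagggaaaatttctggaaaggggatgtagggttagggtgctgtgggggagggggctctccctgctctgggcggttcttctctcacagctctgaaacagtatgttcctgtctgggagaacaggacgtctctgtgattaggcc
C5ar1: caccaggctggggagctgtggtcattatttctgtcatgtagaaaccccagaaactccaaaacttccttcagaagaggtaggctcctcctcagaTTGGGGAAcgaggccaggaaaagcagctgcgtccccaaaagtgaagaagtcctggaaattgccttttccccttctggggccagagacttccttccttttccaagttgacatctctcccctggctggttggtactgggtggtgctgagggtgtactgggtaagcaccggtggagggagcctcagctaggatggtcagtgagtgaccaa
The PU.1 letters began at -30 in C1qb and, on the opposite strand, at -193 in C1qc, counted from the gene start, and were in none of the other 3 windows. They occurred in 28.3% of all 32851 promoter windows of the same length. The C/EBP letters began at -157 in C5ar1 and at -81 in C1qc, were also found in the C3 window, and occurred in 40.7% of all windows. The AP-1 letters TGANTCA were in the C3ar1 window alone among the 5, at -22, and in 7.8% of all windows, and a kappa-B motif was in the C1qc window alone, at -41, and in 8.5% of all. All motifs were searched on both strands. The interferon-stimulated response element was in 3.4% of all windows and TTCNNNGAA, the interferon-gamma activated site, in 8.3%, and neither was in the 5 member windows. A match describes letters and shows no binding.

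The 6 measured complement genes were not shown to differ between KO and WT mice. By limma on log2(intensity + 16), a scale that understates the change of dim probe sets, 0 of the 11 probe sets passed a Benjamini-Hochberg adjusted p below 0.05, and 2 had an unadjusted p below 0.05, both lower in KO. In the same test over all probe sets 0% passed the adjusted threshold, and 8.97% were lower in KO at an unadjusted p below 0.05. In KO 10 of the 11 were lower and 1 was higher, with a median difference of -0.16 against -0.13 over all probe sets. The 5 KO values all lay below the 5 WT values for 2 of the 11, 1 of Cfb and 1 of C5ar1, and the same held for 2.42% of all probe sets. Differences below are log2, KO minus WT, and adjusted p-values are from this fit.

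**Figure D1:**
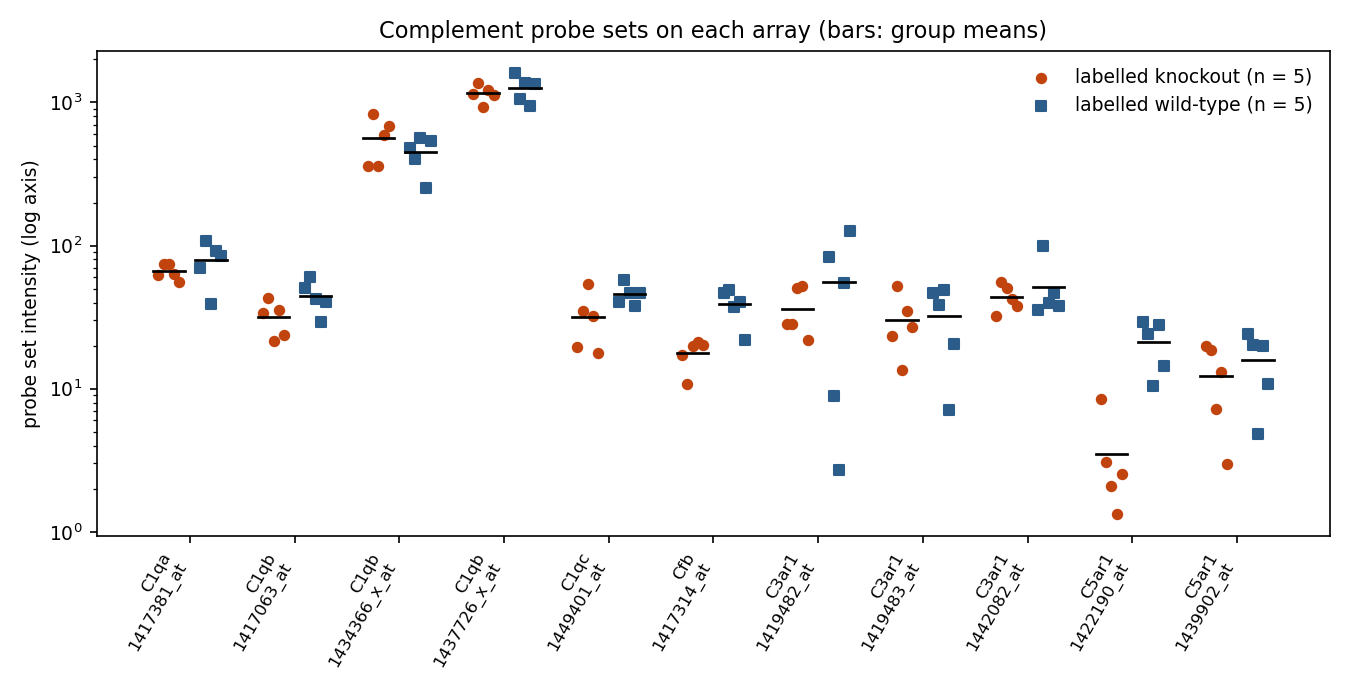
Intensity of the 11 complement probe sets (vertical axis, logarithmic, arbitrary units) on each array, with KO points left of WT points and a bar at the group mean (n = 5 arrays each). The groups lie apart for Cfb and for C5ar1 probe set 1422190_at, while the remaining 9 overlap.

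For C1qa, the A chain of C1q, probe set 1417381_at read 62.7, 74.1, 74.3, 63.0 and 55.6 in KO mice, against 70.1, 108, 38.9, 92.1 and 84.6 in WT mice. The KO values lay within the WT range, whose ends were set by WT replicates 2 and 3. The means were 65.9 ± 8.08 in KO and 78.7 ± 26.1 in WT (SD, n = 5 each), a difference of -0.16 with an SE of 0.25, a 95% interval from -0.70 to 0.37 and an adjusted p of 0.817. The direction of this difference depended on the scaling: it was -0.02 after quantile normalization and 0.18 after centring each array on its median.

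C1qb, the B chain, was read by 3 probe sets of very unequal brightness. The dim one, 1417063_at, read 34.0, 43.2, 21.4, 35.5 and 23.8 in KO mice, against 50.2, 60.1, 42.1, 29.3 and 40.1 in WT mice. All KO values but that of replicate 2 were below 36, while WT replicate 4 was the only WT value below 40, so the groups overlapped. The difference was -0.34 (SE 0.27, 95% interval -0.91 to 0.23, adjusted p = 0.615).
The other two C1qb probe sets end in _x_at, a name Affymetrix gives to probe sets whose probes can also bind other transcripts, and lay above 88% of all probe sets in level. Probe set 1434366_x_at read 361, 826, 362, 597 and 686 in KO mice, against 482, 403, 561, 253 and 540.5 in WT mice, and was the 1 probe set of the 11 that was higher in KO, by 0.30 (SE 0.25, 95% interval -0.22 to 0.82, adjusted p = 0.626). Its highest 3 values were in KO and its lowest in WT, with 2 KO values inside the WT range. Probe set 1437726_x_at read 1146, 1370.3, 937, 1229.6 and 1119 in KO mice, against 1612, 1064, 1370.5, 939.8 and 1354 in WT mice, a difference of -0.11 (SE 0.16, 95% interval -0.46 to 0.23, adjusted p = 0.804). Both groups spanned nearly the same range apart from WT replicate 1. After median centring 1434366_x_at was higher in KO by 0.71 (95% interval 0.13 to 1.29, adjusted p = 0.162) and 1437726_x_at by 0.30, while 1417063_at stayed lower at -0.05. Under that scaling the brightest level class, which holds both _x_at probe sets, had a median of 0.43, so bright probe sets as a whole were higher in KO.

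C1qc, the C chain, read 19.4, 35.0, 54.2, 32.2 and 17.8 on probe set 1449401_at in KO mice, against 40.05, 57.6, 46.4, 37.7 and 46.3 in WT mice. In KO 4 of the 5 values lay below all WT values, and KO replicate 3 lay among the highest of the WT values. The means were 31.7 ± 14.7 in KO and 45.6 ± 7.73 in WT (SD, n = 5 each), a difference of -0.41 (SE 0.28, 95% interval -1.004 to 0.18, adjusted p = 0.556). It was -0.16 after quantile normalization and -0.12 after median centring.

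Cfb, the protease of the alternative pathway, had the clearer separation of the components. Probe set 1417314_at read 17.3, 10.7, 19.9, 21.2 and 20.2 in KO mice, against 46.9, 49.3, 37.4, 40.3 and 21.9 in WT mice. The groups did not overlap, but WT replicate 5 lay just above the highest KO value, and the other 4 WT values were far above it. The means were 17.8 ± 4.23 in KO and 39.2 ± 10.8 in WT (SD, n = 5 each), a difference of -0.69 with an SE of 0.27 and a 95% interval from -1.26 to -0.12, or 1.61-fold higher in WT on this scale. With a pseudocount of 1 it was -1.08 (adjusted p = 0.358) and with 64 it was -0.33 (adjusted p = 0.283). The unadjusted p was 0.0208 and the adjusted p 0.310, so it did not pass. Cfb was in the second level class, where the median difference was -0.24 and 2.05% of probe sets had groups apart and lower in KO. The difference was -0.42 after quantile normalization and -0.43 after median centring, and under both the groups overlapped. Leaving out 1 array at a time gave -0.82 to -0.61, with adjusted p between 0.2496 and 0.504.

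C3ar1, the receptor of C3a, had 3 probe sets, whose values correlated from -0.42 to 0.13 with each other. Probe set 1419482_at read 28.1, 28.1, 50.2, 52.3 and 22.0 in KO mice, against 83.1, 8.84, 2.72, 54.5 and 127 in WT mice. The WT values spread over both sides of the KO values, and the within-group SD of 0.94 on the log2 scale was larger than in 99.1% of probe sets of its level class. Its difference was -0.10 (SE 0.47, 95% interval -1.08 to 0.89, adjusted p = 0.950).
Probe set 1419483_at read 23.2, 52.0, 13.5, 35.0 and 27.0 in KO mice, against 46.9, 38.5, 48.7, 7.11 and 20.6 in WT mice. Probe set 1442082_at, which is annotated from an expressed sequence tag, read 32.1, 55.8, 50.4, 42.6 and 38.0 in KO mice, against 35.4, 99.0, 39.97, 46.3 and 37.9 in WT mice. Groups overlapped for both, and WT replicate 2 alone stood out on 1442082_at. The differences were -0.02 (95% interval -0.74 to 0.69, adjusted p = 0.983) for 1419483_at and -0.12 (95% interval -0.72 to 0.48, adjusted p = 0.880) for 1442082_at. All 3 were higher in KO after quantile normalization, by 0.11, 0.21 and 0.07, and after median centring, by 0.14, 0.23 and 0.19.

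C5ar1, the receptor of C5a, was dim on both probe sets, and both were lower in KO without passing the test. Probe set 1422190_at read 8.45, 3.05, 2.09, 1.33 and 2.52 in KO mice, against 29.4, 24.3, 10.5, 27.7 and 14.4 in WT mice. The groups did not overlap, and KO replicate 1 was the KO value nearest to WT. The means were 3.49 ± 2.85 in KO and 21.2 ± 8.37 in WT (SD, n = 5 each). All 10 values lay in the dim part of the array, where the probe set's mean level exceeded 25.4% of probe sets.
On the log2(intensity + 16) scale the difference of 1422190_at was -0.91 with an SE of 0.23 and a 95% interval from -1.41 to -0.42, or 1.88-fold higher in WT. The size depends on the constant added, since the KO values are below it: the difference was -2.40 with a pseudocount of 1 (adjusted p = 0.166) and -0.33 with 64 (adjusted p = 0.162). The unadjusted p was 0.00104 and the adjusted p 0.156, the lowest of the 11 probe sets, and it did not pass. The difference was -0.75 after quantile normalization, with groups still apart and an adjusted p of 0.274, and -0.76 after median centring, with groups overlapping and an adjusted p of 0.0597. Without 1 array at a time it was -1.03 to -0.83, with adjusted p between 0.102 and 0.353. Probe set 1439902_at, annotated from an expressed sequence tag, read 19.7, 18.7, 7.19, 13.1 and 2.99 in KO mice, against 24.0, 20.3, 4.80, 19.8 and 10.9 in WT mice. Here the groups overlapped, with 2 of the WT values below 3 of the KO values, and the difference was -0.17 (SE 0.27, 95% interval -0.75 to 0.40, adjusted p = 0.818).

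Probe sets of 1 gene did not always give like differences, described here for 2 pairs chosen after their values were seen and therefore without a test. The log2 value of C5ar1 1422190_at minus that of 1439902_at averaged -0.51 ± 0.33 in KO and 0.23 ± 0.09 in WT (SD, n = 5 each), on values that lie among the dimmest of the array. For the bright C1qb pair, 1434366_x_at minus 1437726_x_at averaged -1.08 ± 0.40 in KO and -1.49 ± 0.26 in WT. Which of the probe sets of a gene reports its transcript was not tested.

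**Figure D2:**
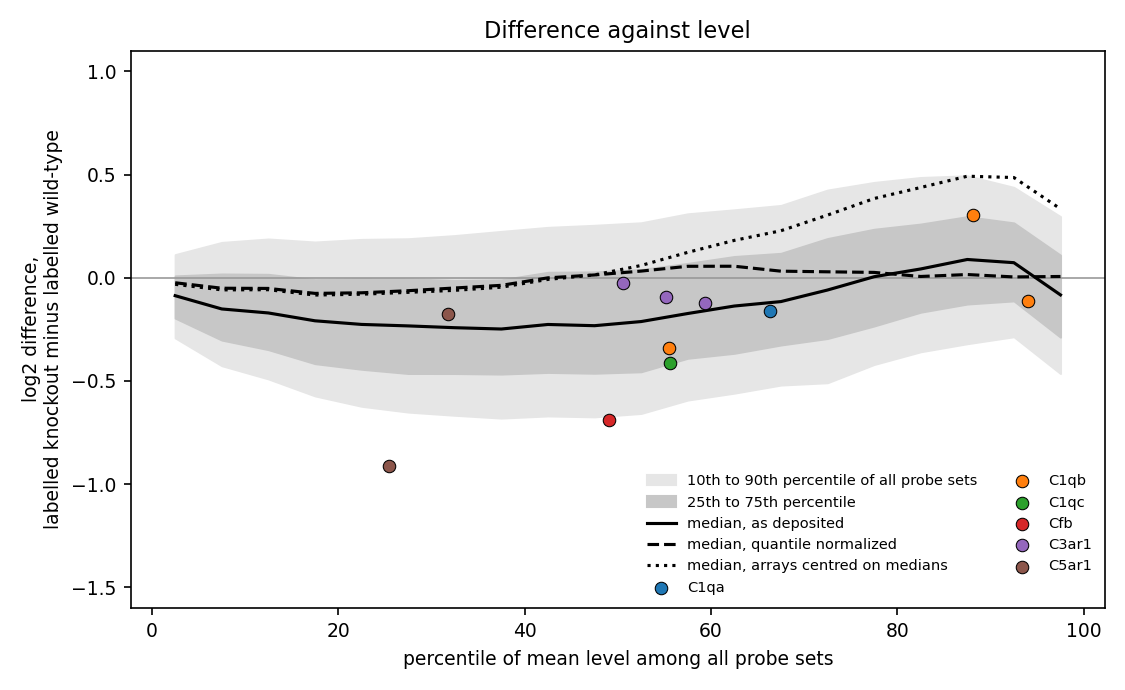
Log2 difference, KO minus WT, of the 11 complement probe sets (points) against the percentile of their mean level, over lines for the median of all probe sets under 3 scalings and grey bands for the percentile ranges given in the key. Most members lie close to the run of all probe sets, which is below 0 for dim ones, and Cfb and C5ar1 probe set 1422190_at lie below it.

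Because dim probe sets as a whole were lower in KO, each member was also set against its own level class. Relative to the class median, Cfb was at -0.45 and C5ar1 1422190_at at -0.68. The others ran from -0.27 for C1qc to 0.28 for C1qb 1434366_x_at. Among all probe sets of a like level, the 10th percentile of the difference was -0.67 for Cfb, itself at -0.69. It was -0.65 for C5ar1 1422190_at, itself at -0.91. Of the 11 probe sets, 0 were in the dimmest class, 3 in the second, 6 in the third and 2 in the brightest. The median difference of all probe sets was -0.13 as deposited, -0.01 after quantile normalization and 0.11 after median centring. Members lower in KO then numbered 10, 6 and 4 of 11, and groups apart and lower in KO were found for 2.42%, 1.13% and 0.460% of all probe sets. Median centring made 1747 probe sets pass the adjusted threshold, none of them a member. Under it the class medians, from dimmest to brightest, were -0.06, -0.03, 0.18 and 0.43.

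**Figure D3:**
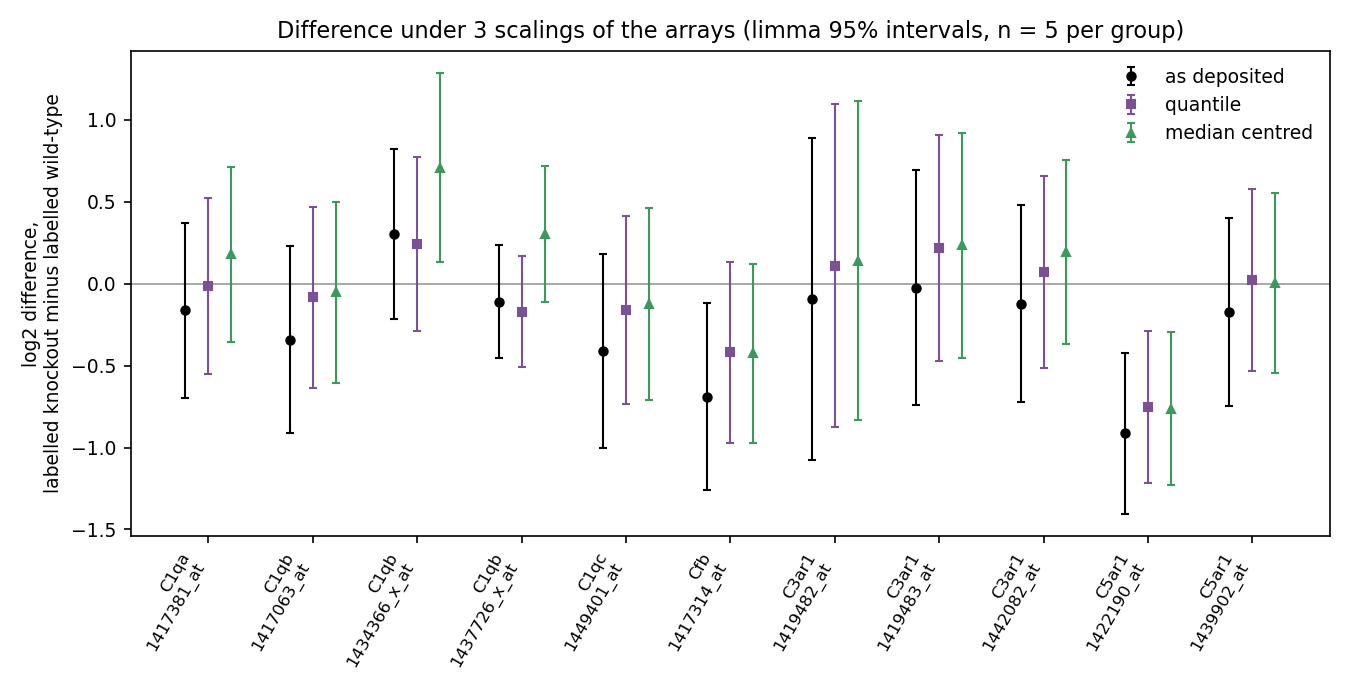
Log2 difference, KO minus WT, with 95% intervals for each complement probe set under 3 scalings of the arrays: as deposited, quantile normalized and median centred. Cfb, C5ar1 1422190_at, C1qc and C1qb 1417063_at stay below 0 under all 3, C1qb 1434366_x_at stays above 0, and the other 6 are on both sides of 0.

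Markers of cell types that the captured tissue could hold were measured on the same arrays, and in bulk tissue fewer cells of a type and less RNA per cell cannot be told apart. Over all genes 60.6% were lower in KO, with a median of -0.09, and over those above the level filter the median was -0.007. Of the 15 microglial genes listed, 14 had a probe set, of which 11 were lower in KO and 3 higher, with a median of -0.23. The 9 above the level filter were all lower, with a median of -0.38. The 3 higher in KO, P2ry12 by 0.39, Tmem119 by 0.36 and Gpr34 by 0.01, were below the filter. At an unadjusted p below 0.05 there were 2 of the 14, against 14.5% of all genes. None passed the limma test over the 10916 genes above the filter, in which 8 genes (0.0733%) passed. The mean log2 level of these 9 ranged over 7.79 to 8.27 in KO and 7.97 to 8.52 in WT. Csf1r, the receptor that microglia need to survive, read 4477 to 6213 in KO and 6241 to 9479 in WT, without overlap (adjusted p = 0.119 over all genes). Groups apart and lower in KO were found for 2.42% of all probe sets. Ctss, another bright microglial gene, read 2622 to 3755 in KO and 2259 to 3792 in WT, a difference of -0.08. Aif1, at -0.27, and Trem2, at -0.41, were the other microglial genes below the filter. With the microglial level as a covariate, which was itself one of the measured values, C5ar1 1422190_at was at -0.72 and Cfb at -0.61, with adjusted p of 0.636 and 0.740, while C1qa was at 0.24. Of 10 endothelial markers with a probe set, 7 were lower in KO and 3 higher, with a median of -0.20. The 5 of them above the filter were all lower, at a mean level of 7.06 to 7.54 in KO and 7.49 to 8.15 in WT, and the 3 higher in KO were below it. Of the neutrophil markers 5 of 5 were lower, 4 of them above the filter at 5.33 to 7.24 in KO and 5.37 to 8.06 in WT. Perivascular macrophage markers, at 6.13 to 6.91 in KO and 5.68 to 6.91 in WT, were lower for 3 of 5 above the filter, and astrocyte markers, at 10.35 to 10.69 in KO and 10.39 to 10.61 in WT, for 5 of 10. By limma 0 markers of these 5 lists passed the adjusted threshold, over all genes or above the filter. Neuron markers went more often the other way. Of 8 with a probe set, 3 were lower in KO and 5 higher, with a median of 0.13. Their mean level ranged over 9.86 to 10.22 in KO and 9.66 to 10.09 in WT. All probe sets of a like level, with a mean of 9.88, had a median difference of 0.07. In the brightest class 46.7% of all probe sets were lower in KO. Whether level gives this direction was not tested. At an unadjusted p below 0.05, 3 of the 8 neuron markers were higher, against 1883 of the 10916 genes above the filter in either direction. Choroid plexus markers were lower for 2 and higher for 4, oligodendrocyte markers for 4 and 3, and red blood cell markers for 4 and 0. None of these passed the adjusted threshold either. The part of these cell types in the complement values was not tested beyond that covariate.

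Other genes of the complement system showed the same absence of calls. Of 46 listed, 37 had a probe set. In KO 27 were lower and 10 higher, with a median of -0.18, while 60.6% of all 18193 genes were lower, with a median of -0.09. At an unadjusted p below 0.05 there were 6 of the 37, against 14.5% of all genes. Past the adjusted threshold of limma there were 0, against 0.0165% of all genes, and 0 had groups apart in either direction. The receptors held the lowest p: Cd93, a receptor of endothelial and myeloid cells once described as a C1q receptor, read 88.6 ± 50.4 in KO and 196 ± 79.3 in WT (SD, n = 5 each), a difference of -1.07 with an SE of 0.33 and an adjusted p of 0.172. Itgb2, the beta chain of the complement receptors CR3 and CR4, read 76.8 ± 29.3 in KO and 128 ± 19.1 in WT, a difference of -0.69 (SE 0.25, adjusted p = 0.229).
Among 13 regulators, 10 were lower in KO and 3 higher. Cd59a, which blocks the membrane attack complex, read 788 ± 186 in KO and 1038 ± 127 in WT (difference -0.41, SE 0.17, adjusted p = 0.268), and Csmd1, a large membrane inhibitor, read 4.55 ± 2.78 in KO and 18.2 ± 14.9 in WT (-0.62, SE 0.29, adjusted p = 0.336). Of 12 recognition and activation genes, 8 were lower and 4 higher, with the lowest p for Masp1, a protease of the lectin pathway, at 64.5 ± 14.8 in KO and 118 ± 66.8 in WT (-0.62, SE 0.30, adjusted p = 0.361). Cfp, the alternative pathway's stabiliser properdin, read 718 ± 98.4 in KO and 879 ± 184 in WT (-0.27, SE 0.16, adjusted p = 0.446). Of 6 terminal components, 5 were lower and 1 higher: C9, which forms the pore, read 3.41 ± 5.24 in KO and 14.1 ± 10.5 in WT (-0.60, SE 0.26, adjusted p = 0.302) and C8b read 1.98 ± 0.769 in KO and 12.1 ± 11.3 in WT (-0.55, SE 0.25, adjusted p = 0.320). Csmd1, C9 and C8b were below the level filter, at mean log2 values of 4.66, 4.54 and 4.44, where probe sets as a whole were lower in KO. C2, the neighbour of Cfb and the matching protease of the classical pathway, was higher in KO by 0.12 (SE 0.20, adjusted p = 0.822).

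Co-variation from array to array was measured over the 10 arrays with group means removed, with 1 probe set per gene (the brightest, without _x_at). The permutations made no allowance for the removed group means, so the p-values of r and rho can be too small. Only 2 of the 6 genes, C1qa and C3ar1, were above the level filter, so r of the others rests on dim values. C1qb was represented by its dim probe set 1417063_at, C3ar1 by 1442082_at and C5ar1 by 1439902_at. The 6 genes gave 15 pairs, whose median Pearson r was 0.21, with 12 above 0. None had a permutation p of r below 0.05, adjusted or not, and the lowest adjusted p was 0.430. For the chains of C1q, made as 1 protein from neighbouring genes, r was 0.13 for C1qa and C1qb (permutation p = 0.748, rho 0.04), 0.31 for C1qa and C1qc (p = 0.372, rho 0.53) and 0.10 for C1qb and C1qc (p = 0.773, rho 0.35). The last of these rested on 1 array: without KO replicate 3 it was 0.74. Between C1qa and C3ar1 r was 0.60 (p = 0.091), with rho 0.68 (p = 0.035), and without the 2 arrays farthest from the C1qa median r was 0.47. Between C1qc and C3ar1 r was 0.58 (p = 0.084), with rho 0.71 (p = 0.027), and without the 2 farthest 0.74, and both rho gave an adjusted p of 0.265. Between C1qa and C5ar1 r was 0.58 (p = 0.073) with rho 0.27, and without the 2 farthest 0.18. On the 7 arrays with spike-in signal these 3 were 0.37, 0.69 and 0.76. The C3ar1 values hold for its probe set 1442082_at only. Over the 10 arrays, C3ar1 1419482_at and 1419483_at gave r of 0.37 and -0.39 with C1qa, and 0.002 and 0.03 with C1qc. C5ar1 1422190_at gave 0.51 with C1qa.

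**Figure D4:**
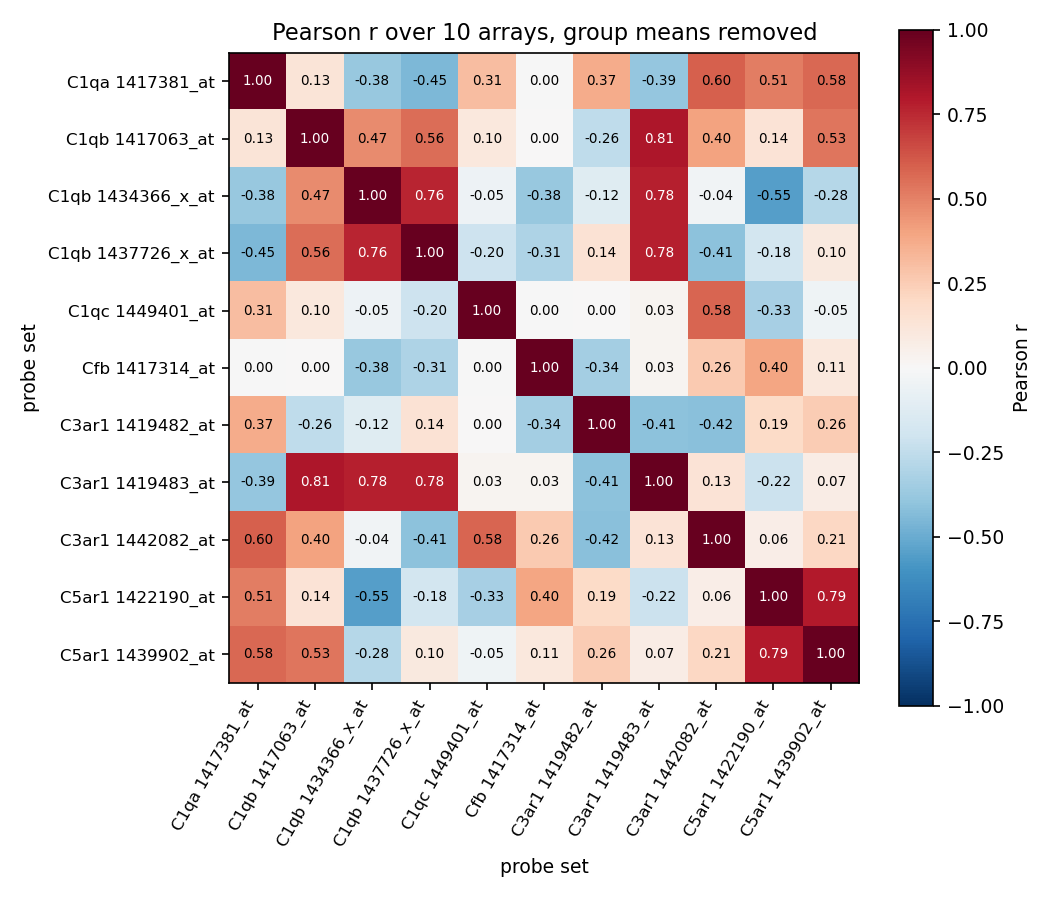
Pearson r between the 11 complement probe sets over the 10 arrays with group means removed, shaded from -1 to 1, with the value in each cell. The pair of C5ar1 and the bright pair of C1qb have high values within their gene. C3ar1 1419483_at has higher r with the 3 C1qb probe sets than with the other C3ar1 probe sets. These r include WT replicate 4 and KO replicate 3, on which 1419483_at was lowest in its group.

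Probe sets of the same gene were then compared, a set of 7 pairs chosen after the values were seen. Their permutation p-values, too, made no allowance for the removed group means and can be too small. An adjusted p below 0.05 was therefore not read as a pass for any of these pairs. The C5ar1 pair had r = 0.79 (permutation p = 0.00785, adjusted p = 0.0399) and rho = 0.84 (adjusted p = 0.0247), with r = 0.63 without the 2 farthest arrays. The bright C1qb pair had r = 0.76 (permutation p = 0.0114, adjusted p = 0.0399) and rho = 0.72 (adjusted p = 0.0824), with r = 0.74 without the 2 farthest. With group means left in they were 0.58 and 0.63, and on the 7 arrays with spike-in signal 0.78 and 0.73. The adjusted p then missed the threshold in both settings, as it did with a pseudocount of 1 (0.143 for C5ar1 and 0.0788 for C1qb) and, for C5ar1, with median centring (0.0509). Leaving out 1 array at a time, the C5ar1 pair had an adjusted p above 0.05 without KO replicates 1, 3 or 4 or WT replicates 1, 3, 4 or 5, at up to 0.118, with r between 0.66 and 0.89. The C1qb pair did so without KO replicates 2, 3 or 4 or WT replicates 3, 4 or 5, at up to 0.238, with r between 0.63 and 0.85. The dim C1qb probe set gave r of 0.47 and 0.56 with the bright ones, but -0.14 and 0.02 without WT replicate 4 and KO replicate 3, the 2 farthest. The 3 C3ar1 pairs gave -0.41, -0.42 and 0.13. Probe set 1419483_at of C3ar1, by contrast, gave 0.81, 0.78 and 0.78 with the 3 C1qb probe sets, values picked from the matrix after they were seen and given as a description. Its lowest values in each group were also on WT replicate 4 and KO replicate 3, at 7.11 and 13.5. These r without the 2 arrays were not computed.

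Against the marker and response lists, 30 relations were computed. The unadjusted permutation p, which has the same limit, was below 0.05 for 3, and 0 passed the adjustment, with a lowest adjusted p of 0.483. The microglial level gave r = 0.68 with C1qa (p = 0.030, rho 0.53) and 0.63 with C5ar1 (p = 0.048, rho 0.45), and the endothelial level gave 0.63 with C3ar1 (p = 0.044, rho 0.45). Without the 2 farthest arrays they were 0.61, 0.52 and 0.57. The bright C1qb probe sets gave -0.18 and -0.09 with the microglial level and 0.56 and 0.61 with the astrocyte level, and of 20 such relations 0 had a p below 0.05. Relations of the 6 genes with the interferon and acute inflammatory lists lay between -0.31 and 0.39, and those of the bright C1qb probe sets between -0.38 and -0.31.

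Among 10914 other genes, those with the pattern most like each member over the 10 arrays, group means removed, were named as a description. They were Pou2f2, Senp1 and Riox2 for C1qa, with r of 0.96, 0.96 and 0.95, and Myo9a, Patz1 and Scoc for C1qb, with r of 0.95, 0.92 and 0.92. For C1qc they were Setd7, Ephx4 and Cds1, at 0.95, 0.93 and 0.91, and for Cfb Gtf2h3, Arntl and Slc38a9, at 0.94, 0.92 and 0.88. For C3ar1 they were Sufu, St6galnac6 and 4930430F08Rik, at 0.99, 0.94 and 0.93, and for C5ar1 Ephx2, B3galt4 and Marchf10, at 0.93, 0.92 and 0.92. Another complement gene was not among them. Each r is among the highest of 10914 over 10 arrays, so values of this size can arise without any relation. How high they would be without one was not tested. Of the members, only C1qa and C3ar1 were above the level filter.

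The spread within groups differed between members. Relative to probe sets of their own level class, the within-group SD was small for Cfb, at 0.26 (log2), larger than in 1.69% of them, and for C5ar1 1422190_at, at 0.28, larger than in 2.7%. It was 0.33 for C1qc, 0.34 for C1qa and 0.38 for C3ar1 1442082_at, at percentiles 24.7, 26.8 and 37.6. The C1qb probe sets were at 0.28, 0.49 and 0.26, with 1434366_x_at larger than in 88.5% of its class.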

How the data were processed

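Each of 10 mice gave 1 array of preoptic RNA, and the titles assign 5 to the knockout and 5 to the wild-type group. The deposited intensity values are on a linear scale and came from GCOS as run by the authors, according to the submitters' processing notes. Its version is not given in the sources used here, nor are detection calls. Each array's mean without the lowest and highest 2% of probe sets is 200.002 in the deposited table, so dim probe sets can still shift between arrays.

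Gene names come from a possibly dated platform annotation: of 45101 probe sets, 64 were controls, 34945 name 1 gene, 932 several and 9160 none. All 45037 others were tested as log2(intensity + 16) with limma (lmFit, eBayes with trend, genotype as the only term, Benjamini-Hochberg). Genes were represented by the brightest probe set (_x_at only without another), and the dimmest 40% of 18193 genes were left out of the gene test, which kept 10916. Correlations used 100000 permutations, without allowance for the group means removed beforehand. Members and lists, and the tests on them, were chosen with earlier results of these data known. All 8 members are named. Of other complement genes the 2 with the smallest p in each role are named, and for likeness the 3 genes with the highest r. C2, Csf1r and the markers Aif1, Ctss, P2ry12, Tmem119, Trem2, Gpr34, Hmx2, Nkx2-1 and Tac2 were named outside this rule, after their values were seen. Since 2 members had no probe set of their own, 15 pairs and 30 list relations remained. Alternatives covered pseudocounts (1 and 64), scaling (quantile, median), the filter, the choice of probe sets, array weights, the trend, replicate and spike-in blocks, a microglial covariate and leaving out each array. Added after seeing the data were _x_at probe sets for genes, correlations within a gene, and differences between probe sets of a gene. The procedure was tested on simulated data. Fits ran in R 4.3.3 (limma 3.58.1, reading with data.table, version 1.17.8). Promoters and plots were made in Python 3.11.15 using numpy 2.4.6, pandas 2.3.3 and matplotlib 3.10.9. Every replicate is its own mouse, and the spread behind a p-value includes that of dissection, amplification and hybridization. No likeness of same-number arrays was seen, as the correlations of their deviations lay between -0.13 and 0.07. This cannot show whether the mice had been paired, and the titles do not say.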

Additional observations from a re-analysis of the deposited data

Results flagged for a closer look

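Of 54 groups of 5 arrays examined, 3 held an array far from the other 4, with a gap to its nearest neighbour above 0.71 of the group's range, a rule that chance alone meets in about 5% of groups. C3ar1 probe set 1442082_at reached 6.85 on the log2(intensity + 16) scale on WT replicate 2, against 5.68 to 5.96 on the other WT arrays (gap 0.762 of the range). C5ar1 probe set 1422190_at reached 4.61 on KO replicate 1, against 4.12 to 4.25 on the other KO arrays (gap 0.725 of the range). The endothelial level was 7.06 on KO replicate 1, against 7.45 to 7.54 on the other KO arrays (gap 0.810 of the range).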

How the results depend on the processing

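The count of complement probe sets past the threshold was 0 under every setting run, and the lowest member adjusted p lay between 0.0597 (median centring) and 0.636 (microglial covariate). Of 232 log2 differences of members under other settings, 204 kept their sign, 28 turned and 0 passed. With a pseudocount of 1, C3ar1 1419482_at was at 0.26 and 1419483_at at 0.0374. With quantile normalization, C3ar1 1419482_at, 1419483_at and 1442082_at were at 0.11, 0.21 and 0.0724, C5ar1 1439902_at at 0.0198, and r was -0.0172 for C1qa and C1qb and -0.0326 for C1qb and C1qc. With median centring, C1qa was at 0.18, C1qb 1437726_x_at at 0.30, the C3ar1 probe sets at 0.14, 0.23 and 0.19, C5ar1 1439902_at at 0.000799, and these r were -0.0903 and -0.0896. With a gene's probe sets averaged they were -0.30 and -0.0557, and with _x_at probe sets allowed, a setting added after seeing the data, -0.45 and -0.20. With array weights C3ar1 1419483_at was at 0.0576. On the 7 arrays with spike-in signal C3ar1 1419483_at was at 0.11 and 1442082_at at 0.0282, and r was -0.102 for C1qa and C1qb and -0.0296 for C1qa and C1qc. With the microglial covariate C1qa was at 0.24, C3ar1 1419482_at at 0.82 and 1442082_at at 0.0745, and C5ar1 1439902_at at 0.26. Leaving out each array gave C3ar1 1419482_at -0.48 to 0.26, 1419483_at -0.27 to 0.12 and 1442082_at -0.20 to 0.0864, r of C1qa and C1qb -0.18 to 0.36, and r of C1qb and C1qc -0.10 to 0.74. The C5ar1 pair of probe sets then had r between 0.66 and 0.89 and the bright C1qb pair between 0.63 and 0.85, and their adjusted p reached 0.118 and 0.238. Member pairs past the threshold numbered 0 to 1, the 1 being C1qa and C3ar1 without WT replicate 3 (r = 0.84, adjusted p = 0.0431). That permutation p made no allowance for the removed group means either, so it can be too small and was not read as a pass.

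Genes past the threshold, 8 as reported, numbered 24 with a pseudocount of 64, 0 with quantile normalization, 2479 with median centring, 3 without a filter, 65 without the dimmest 60%, 1 with averaged probe sets, 112 with array weights, 0 without a trend, 2 with the replicate number as a block, which called 0 members, 16 with a spike-in block, 0 on the arrays with spike-in signal, 0 with the microglial covariate and 0 to 39 without 1 array. The cause of these moves was not tested. Arrays with the same number correlated best with each other in 1 of 5 pairs. Most members lie at levels where detection calls, which were not given, would be needed to tell signal from background, and 5 arrays per group limit the precision.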
